A study of Mus musculus with 18 samples.

Results

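Transcript levels of Cxcl12, its receptors Cxcr4 and Ackr3, and the homeostatic CXC chemokines Cxcl13, Cxcl14 and Cxcl16 were examined in cultured mouse mammary fibroblasts exposed to tumor conditioned medium (CM). The 6 genes were taken by symbol from a table of 55486 genes, and all 6 were found there. Of these, 5 passed the filter on low counts and belonged to the 14273 genes tested, and Cxcl13 did not. Normal fibroblasts (NFs) of the FVB/n mammary gland were separated by sorting for CD26, a surface peptidase encoded by Dpp4, into a CD26- and a CD26+ fraction. Per the study's methods the donors were female mice of 8 to 16 weeks, either mTmG or without WapCre but with floxed alleles that included Cdh1F/F, about 4 to 6 mice were pooled per sort, and primary cells were used up to passage 6 at the latest. Both fractions then spent 7 days in control conditioned medium, called control medium below, or in the CM of 1 of 6 tumor cell lines. The lines came from a mouse model of invasive lobular carcinoma in which Cre expressed from the Wap promoter removes floxed alleles, that of E-cadherin among them, in the mammary epithelium. The 4 groups were CD26- NFs in control medium (n = 3, replicates 1 to 3), CD26- NFs in CM (n = 6, replicates 4 to 9), CD26+ NFs in control medium (n = 3, replicates 10 to 12) and CD26+ NFs in CM (n = 6, replicates 13 to 18). Within a cell type each CM library received the CM of a different line, and each line was given to 1 culture of each cell type. The labels do not state whether the libraries of a fraction, in control medium or in CM, came from separate sorts. Their spread may therefore be technical, and the tests between the cell types may rest on few sorts.

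Cxcl12, also called SDF-1, is a chemokine that stromal cells make constitutively and that draws cells carrying Cxcr4, among them hematopoietic progenitors and many leukocytes. Cxcr4 is a G protein-coupled receptor that signals through inhibitory G proteins. Ackr3 binds the same ligand with high affinity, recruits arrestins rather than G proteins, and takes the ligand into the cell. Cxcl13 is the B cell attractant of lymphoid follicles, Cxcl14 is a conserved chemokine of epithelia and connective tissue, and Cxcl16 is made as a transmembrane ligand of Cxcr6 that proteases release from the cell surface. CD26 itself removes the first residues of Cxcl12, which ends its action on Cxcr4.

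The coding sequence around the motif that defines each protein family is shown first, because it sets these ligands apart from the CXC chemokines that attract neutrophils. Each ligand carries a pair of cysteine codons with a single codon between them, printed in capitals. In the 4 ligands the codons just before this motif did not spell Glu-Leu-Arg, the tripeptide that precedes it in neutrophil attractants.
Cxcl12: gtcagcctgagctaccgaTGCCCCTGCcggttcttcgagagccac
Cxcl13: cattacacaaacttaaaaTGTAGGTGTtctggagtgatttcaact
Cxcl14: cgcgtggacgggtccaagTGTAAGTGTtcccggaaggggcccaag
Cxcl16: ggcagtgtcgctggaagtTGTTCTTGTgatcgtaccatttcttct
In the receptors the capitals mark the Asp-Arg-Tyr codons, the stretch at the inner end of the third transmembrane helix with which receptors of this class engage G proteins.
Cxcr4: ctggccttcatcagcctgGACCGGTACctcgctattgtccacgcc
Ackr3: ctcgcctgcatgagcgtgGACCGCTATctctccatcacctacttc
All are read 5′ to 3′ on the coding strand of GENCODE transcripts of build GRCm38, the build of the count table. The windows lie at chr6:117171490-117171534 on the plus strand, chr5:95958646-95958690 on the plus strand, chr13:56295897-56296119 on the minus strand with an intron inside, chr11:70459109-70459153 on the minus strand, chr1:128589494-128589538 on the minus strand and chr1:90214223-90214267 on the plus strand. The Cxcl12 gene (ENSMUSG00000061353, chr6:117168535-117181367) has 3 coding transcripts of 119, 89 and 93 codons that share this window, and its count sums over them. Cxcr4 (ENSMUSG00000045382) and Ackr3 (ENSMUSG00000044337) lie on chromosome 1 and encode 359 and 362 codons. Cxcl13 (ENSMUSG00000023078, chromosome 5), Cxcl14 (ENSMUSG00000021508, chromosome 13) and Cxcl16 (ENSMUSG00000018920, chromosome 11) encode 109, 99 and 246 codons. No other annotated gene overlapped the members except Zmynd15, on the opposite strand to Cxcl16. Zmynd15 had 23 to 81 counts per library against 165 to 1018 for Cxcl16, the kit marked strand, and the strand setting of the counting was not stated.

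The promoters of the ligand and its receptors are shown because Cxcl12 and Ackr3 rose with CM in CD26+ NFs while Cxcr4 fell. The motifs were not tested against these changes. The 250 bases before the annotated start are from RefSeq (GRCm38.p6), 5′ to 3′ on the strand of the gene, with GC boxes (GGGCGG on either strand) and TATA boxes (TATAAA on either strand) in capitals.
Cxcl12: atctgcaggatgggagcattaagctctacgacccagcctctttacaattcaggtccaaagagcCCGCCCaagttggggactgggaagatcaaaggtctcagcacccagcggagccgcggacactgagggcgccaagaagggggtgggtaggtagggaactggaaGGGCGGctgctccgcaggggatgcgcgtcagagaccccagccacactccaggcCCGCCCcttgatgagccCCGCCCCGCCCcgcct
Ackr3: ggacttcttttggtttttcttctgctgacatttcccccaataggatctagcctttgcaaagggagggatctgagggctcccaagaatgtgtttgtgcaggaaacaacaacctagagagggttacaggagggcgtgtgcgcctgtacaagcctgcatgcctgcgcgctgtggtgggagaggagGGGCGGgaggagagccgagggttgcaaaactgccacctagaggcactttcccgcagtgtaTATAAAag
Cxcr4: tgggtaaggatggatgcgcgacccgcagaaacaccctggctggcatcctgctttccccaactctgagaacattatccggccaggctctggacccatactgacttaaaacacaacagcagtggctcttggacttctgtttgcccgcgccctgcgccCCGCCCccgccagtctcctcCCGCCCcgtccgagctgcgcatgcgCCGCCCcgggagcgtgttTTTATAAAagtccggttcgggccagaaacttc
They lie at chr6:117168285-117168534 (plus strand), chr1:90203730-90203979 (plus strand) and chr1:128592300-128592549 (minus strand). The Cxcl12 window held 5 GC boxes and no TATA box. The Ackr3 window held 1 of each, and the Cxcr4 window held 3 GC boxes and 2 overlapping TATA boxes on opposite strands. Among 32851 promoter windows of this length, 32.7% held a GC box and 12.4% a TATA box. Cxcl14 had neither motif, Cxcl13 had 1 TATA box, and Cxcl16 was not in the promoter table.

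Libraries held 9725723 to 14585349 counts. Levels are given as CPM, counts scaled to the TMM-adjusted library size, and levels of different genes are compared only as CPM per kilobase of exon. The exon length is the union over all annotated transcripts of a gene. It was 8176 bases for Cxcl12, 1827 for Cxcl14, 3348 for Ackr3 and 1808 for Cxcr4. Ratios and ranks across genes depend on these lengths, and which transcripts were in use was not tested. Fold changes come from the quasi-likelihood F test of edgeR over all tested genes, with a standard error (SE), and FDR is its Benjamini-Hochberg adjusted p. A gene is called changed at an FDR under 0.05. Of the fibroblast markers, Pdgfra was at 217 to 1139 CPM, and Ptprc (leukocytes) and Cd79a (B cells) had at most 3 counts and Itgam (myeloid cells) at most 2 counts in any library. Other immune markers were present, Csf1r at 11.0 to 26.8 CPM and Cd68 at group means of 1.32 to 2.80 CPM. Epithelial markers were present although cells carrying EpCAM or CD49f had been sorted out. The summed level of 8 epithelial markers ran from 4164 to 4609 CPM in CD26- control, 2635 to 4307 CPM in CD26- CM, 678 to 1224 CPM in CD26+ control and 620 to 1494 CPM in CD26+ CM libraries. Dpp4, the gene of the sorting marker, did not tell the cell types apart in control medium, where no CD26- library had more than 2 counts and no CD26+ library more than 1. In CM it had 1 to 11 counts per library in CD26- NFs and 8 to 104 in CD26+ NFs.

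**Figure D1:**
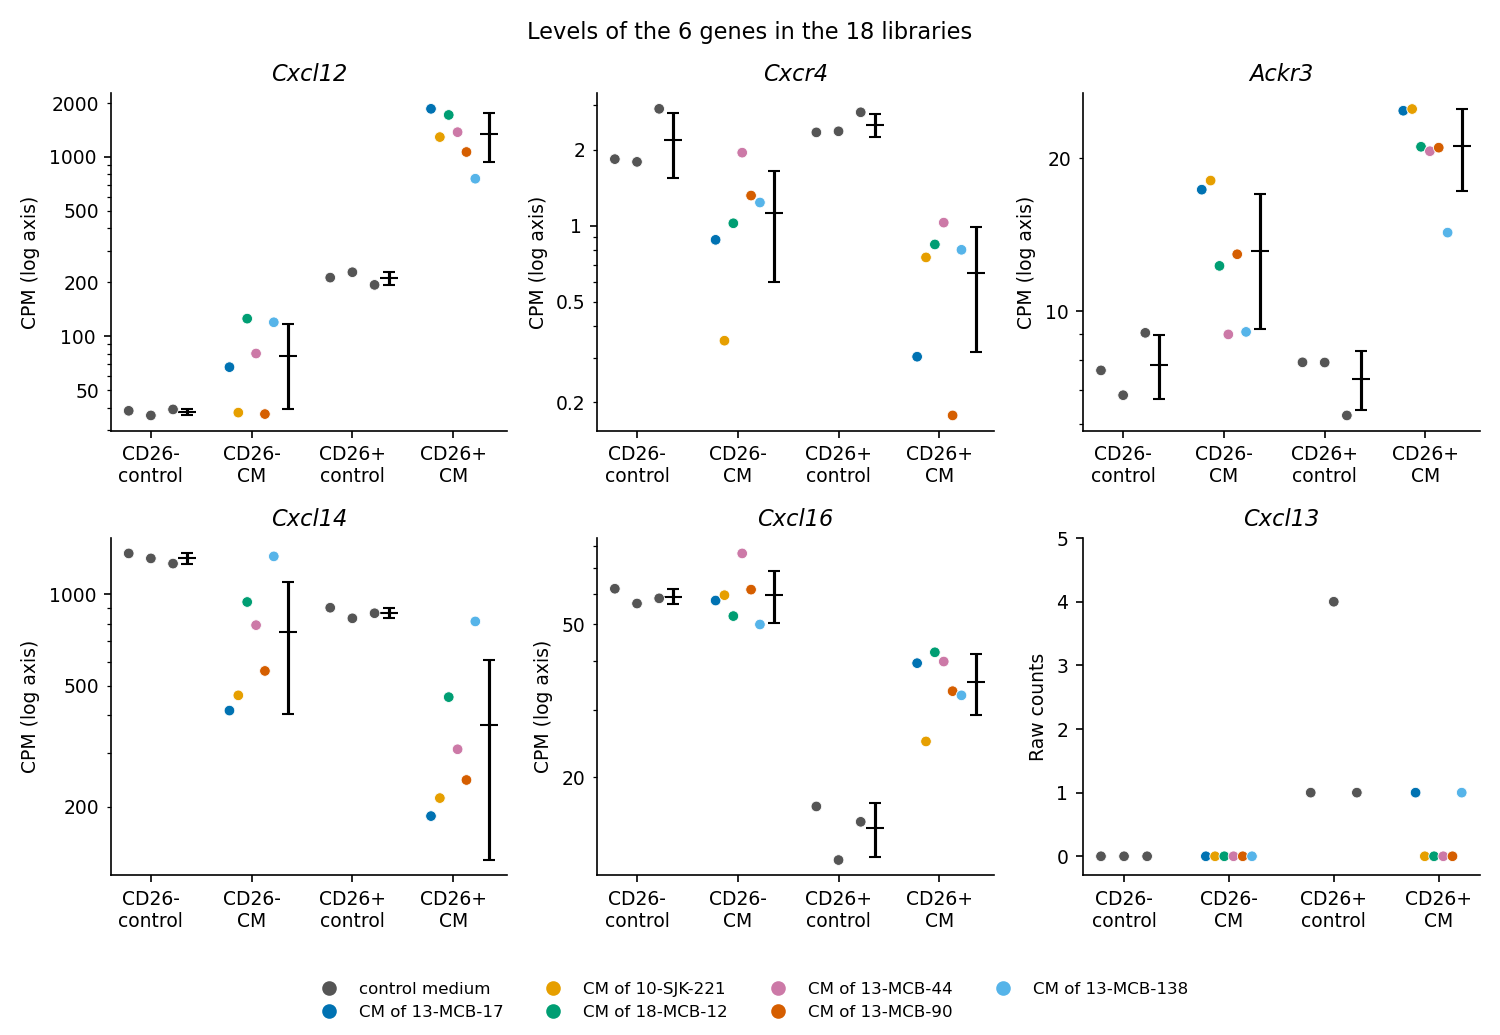
Level of each gene in every library by group, in CPM on a log axis (raw counts on a linear axis for Cxcl13), colored by the tumor line of the CM. The bar beside each group is the mean ± SD. Cxcl12 in CD26+ NFs with CM lies above every other group, and Cxcl14 shows the same order of lines in both cell types.

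Cxcl12 was higher in CD26+ than in CD26- NFs in both media and rose 6.36-fold with CM in CD26+ NFs. The CD26- control libraries held 38.4, 36.2 and 39.1 CPM. The CD26- CM libraries ran from 36.8 CPM (line 13-MCB-90) through a median of 73.7 to 125 CPM (line 18-MCB-12). In CD26- NFs 4 of 6 CM libraries lay above all controls, and those of lines 10-SJK-221 and 13-MCB-90 lay within the control range. The CD26+ control libraries held 212, 228 and 193 CPM. The CD26+ CM libraries ran from 757 CPM (line 13-MCB-138) through a median of 1333 to 1856 CPM (line 13-MCB-17). All 6 CD26+ CM libraries were above the CD26+ controls, and all CD26+ libraries were above all CD26- libraries. In bulk RNA, a change in the share of cells that make a transcript and a change in RNA per cell cannot be told apart.

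The log2 fold change of Cxcl12 with CM was 2.67 ± 0.38 (SE, FDR = 6.14e-05) in CD26+ NFs, rank 125 from the top among the tested genes. In CD26- NFs it was 1.04 ± 0.36 (SE) and missed the FDR (0.0606). That call was gained with DESeq2 (adjusted p = 0.0326) and without replicate 5, 8 or 18 (edgeR FDR 0.0314, 0.0298 and 0.0411), and over all alternatives the FDR ran from 0.0298 to 0.165. The difference between the CM effects was 1.63 ± 0.48 on the log2 scale (FDR = 0.0476), 3.10-fold. It rested on the full set of libraries. Leaving out any library other than replicate 6, 9 or 18 gave values of 1.49 to 1.68 with FDRs of 0.0509 to 0.110. With the line as a replicate block it was 1.72 ± 0.40 (FDR = 0.0115), and the FDR ran from 0.0115 to 0.110 over all alternatives.

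Between the cell types, Cxcl12 was 5.57-fold higher in CD26+ NFs in control medium (log2 fold change 2.48 ± 0.41, SE, FDR = 7.65e-05) and 17.3-fold higher in CM (4.11 ± 0.30, SE, FDR = 7.15e-09), rank 28 from the top. Within the same CM, the fold between CD26+ and CD26- NFs ran from 6.32 for line 13-MCB-138 to 34.3 for line 10-SJK-221. The 6 lines all gave the higher value in CD26+ NFs. The epithelial markers were lower in CD26+ NFs for 7 of 8 genes in each medium, where 25.4% of all tested genes were in control medium and 29.3% in CM. They were led by Cdh1 (-2.48 ± 0.29 in control medium, FDR = 1.78e-06, and -2.11 ± 0.20 in CM, FDR = 1.05e-07) and the keratin gene Krt18 (-2.46 ± 0.29, FDR = 2.45e-06, and -2.11 ± 0.20, FDR = 1.30e-07; log2 fold change ± SE), and their part in the comparison of the cell types was not tested.

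Ackr3, the arrestin-coupled receptor that clears Cxcl12, rose with CM in both cell types. The CD26- control libraries held 7.64, 6.82 and 9.06 CPM, and the CD26- CM libraries ran from 8.99 through a median of 12.6 to 18.1 CPM. The CD26+ control libraries held 7.92, 7.92 and 6.23 CPM, and the CD26+ CM libraries ran from 14.3 through a median of 21.0 to 25.0 CPM. All 6 CM libraries were above the controls in CD26+ NFs, and 5 of 6 were in CD26- NFs. The log2 fold change was 1.53 ± 0.23 (SE, FDR = 0.000103) in CD26+ and 0.74 ± 0.23 (SE, FDR = 0.0361) in CD26- NFs. The call in CD26- NFs was lost without replicate 1, 2, 3, 4, 5 or 8 (log2 fold changes of 0.62 to 0.87, FDR 0.0547 to 0.133) and when only these groups were fitted (FDR = 0.0578). Over all alternatives that FDR ran from 0.0138 to 0.133.

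In control medium the level of Ackr3 did not pass the test between the cell types (log2 fold change -0.10 ± 0.27, SE, FDR = 0.782), and in CM it was 1.61-fold higher in CD26+ NFs (0.69 ± 0.17, SE, FDR = 0.00199). Within the same CM it was higher in CD26+ NFs for all 6 lines, by 0.47 to 1.19 on the log2 scale. The difference in CM effect was 0.79 ± 0.32 (SE) and missed the FDR (0.127). With the line as a replicate block it was 0.81 ± 0.19 (SE) and passed it (FDR = 0.0102, with a range of 0.0102 to 0.311 over all alternatives).

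Cxcr4, the signaling receptor, was low throughout and fell with CM in CD26+ NFs. The CD26+ control libraries held 29, 32 and 38 counts, or 2.34, 2.37 and 2.82 CPM, and the CD26+ CM libraries 2 to 13 counts, with a median of 0.776 CPM and a range of 0.177 to 1.03 CPM. The groups did not overlap, and the log2 fold change was -1.93 ± 0.38 (SE, FDR = 0.00130). The CD26- control libraries held 1.84, 1.79 and 2.91 CPM, and the CD26- CM libraries ran from 0.351 through a median of 1.13 to 1.95 CPM. There 5 of 6 CM libraries lay below the controls, and the change of -0.98 ± 0.37 (SE) missed the FDR (0.0803). It passed without replicate 7 (FDR = 0.0266) and ran from 0.0266 to 0.378 over all alternatives. The cell types did not pass the test in control medium (0.18 ± 0.39, SE, FDR = 0.727) or in CM (-0.77 ± 0.37, SE, FDR = 0.0827), though the latter passed without replicate 5 (FDR = 0.0182) or 16 (FDR = 0.0467) in a range of 0.0182 to 0.227. The difference in CM effect was -0.95 ± 0.54 (SE, FDR = 0.286).

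Set side by side per kilobase of exon, the ligand outran its receptors most in CD26+ NFs with CM. Cxcl12 was at 164 ± 49.7 CPM per kilobase (SD, n = 6) there, Ackr3 at 6.32 ± 1.16 and Cxcr4 at 0.360 ± 0.185. By this measure the ratio of Cxcl12 to Ackr3 averaged 2.00 ± 0.209 (SD, n = 3) in CD26- NFs without CM and 2.80 ± 1.86 (SD, n = 6) with it. In CD26+ NFs it averaged 11.8 ± 0.874 (SD, n = 3) without and 25.8 ± 5.40 (SD, n = 6) with CM. The ranges were separate between the cell types, and in CD26- NFs the CM range of 0.849 to 5.39 held the control range of 1.77 to 2.17.

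**Figure D2:**
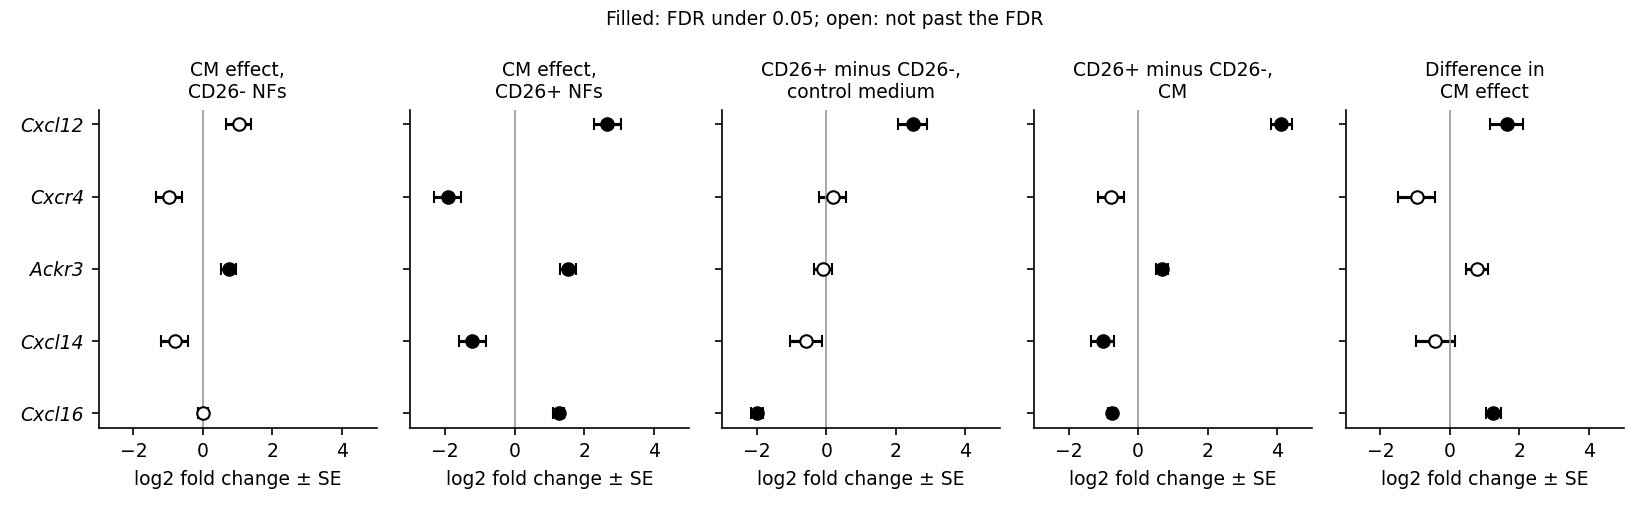
Log2 fold change ± SE of the 5 tested genes in each comparison, with filled circles at an FDR under 0.05. All 5 circles are filled for CM in CD26+ NFs and 1, that of Ackr3, for CM in CD26- NFs.

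Cxcl14 had the highest mean per kilobase of the 6 genes in every group and fell with CM in CD26+ NFs. In CD26+ NFs with CM its libraries overlapped those of Cxcl12, at 102 to 445 against 92.5 to 227 CPM per kilobase. The Cxcl14 value of 445 was that of replicate 18, and the next highest was 251. The CD26+ control libraries held 902, 832 and 865 CPM. The CD26+ CM libraries ran from 187 CPM (line 13-MCB-17) through a median of 277 to 813 CPM (line 13-MCB-138). All 6 were below the lowest control, that of line 13-MCB-138 by the smallest margin. The log2 fold change was -1.22 ± 0.39 (SE, FDR = 0.0246), and it missed the FDR without control replicate 10, 11 or 12 (-1.20, -1.27 and -1.24, FDR 0.0670, 0.0565 and 0.0601), in a range of 0.000631 to 0.0670 over all alternatives.

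In CD26- NFs the Cxcl14 controls held 1360, 1309 and 1259 CPM, and the CM libraries ran from 414 CPM (line 13-MCB-17) through a median of 675 to 1330 CPM (line 13-MCB-138). There 5 of 6 lay below the controls and that of line 13-MCB-138 among them, and the change of -0.80 ± 0.39 (SE) missed the FDR (0.173). Between the cell types, Cxcl14 was 2.02-fold lower in CD26+ NFs in CM (log2 fold change -1.02 ± 0.33, SE, FDR = 0.0136). In control medium the 3 CD26+ libraries were below the 3 CD26- libraries, but the change of -0.60 ± 0.46 (SE) missed the FDR (0.302). When the 2 control groups were fitted alone it was -0.60 with an FDR of 2.05e-06, and over all alternatives the FDR ran from 2.05e-06 to 0.437. The joint fit takes its spread from the CM libraries too, which varied more: the coefficient of variation of Cxcl14 was 3.84% and 4.01% in the CD26- and CD26+ controls and 46.4% and 63.9% in CM. Summed epithelial markers were higher in CD26- NFs, as Cxcl14 was in CM, and their part in this result was not tested.

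In control medium Cxcl14 ranked 23 in CD26- and 45 in CD26+ NFs among 14260 genes by CPM per kilobase, and in CM 50 and 149. Cxcl12 ranked 7195 in CD26- control, 4598 in CD26- CM, 1775 in CD26+ control and 204 in CD26+ CM libraries. By this measure, which rests on the exon lengths given above, both chemokines reached like levels in CD26+ NFs with CM. Cxcl14 was at 203 ± 130 and Cxcl12 at 164 ± 49.7 CPM per kilobase there (SD, n = 6). The ratio of Cxcl12 to Cxcl14 averaged 0.0546 ± 0.00581 (SD, n = 3) in CD26+ NFs without CM and 1.10 ± 0.666 (SD, n = 6) with it, where it ran from 0.208 to 2.22. In CD26- NFs it averaged 0.00647 ± 0.000407 (SD, n = 3) without and 0.0236 ± 0.00802 (SD, n = 6) with CM, so the 4 groups did not overlap.

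Cxcl16, the shed ligand of Cxcr6, was lower in CD26+ than in CD26- NFs and rose with CM in CD26+ NFs. The CD26- control libraries held 61.8, 56.6 and 58.3 CPM, and the CD26- CM libraries ran from 49.9 through a median of 58.5 to 76.3 CPM, on both sides of the controls. The CD26+ control libraries held 16.8, 12.2 and 15.3 CPM, and the CD26+ CM libraries ran from 24.8 through a median of 36.5 to 42.3 CPM, all above the controls and all below every CD26- library. The log2 fold change with CM was 1.26 ± 0.16 (SE, FDR = 2.49e-05) in CD26+ and 0.016 ± 0.14 (SE, FDR = 0.956) in CD26- NFs, where the sign turned without replicate 2 (-0.012) or 7 (-0.067). The difference was 1.25 ± 0.21 (SE, FDR = 0.00402), and 1.24 ± 0.18 (SE, FDR = 0.000763) with the line as a replicate block. Cxcl16 was 3.98-fold lower in CD26+ NFs in control medium (log2 fold change -1.99 ± 0.18, SE, FDR = 1.51e-07) and 1.68-fold lower in CM (-0.75 ± 0.12, SE, FDR = 3.62e-05). The epithelial marker sum given above moved the same way between the cell types, and its part in this result was not tested.

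Cxcl13 was at the limit of detection. It had 0 counts in all 9 CD26- libraries, 1, 4 and 1 counts in CD26+ control and at most 1 count in CD26+ CM libraries, 2 counts in all. A count of 0 allows up to 3 counts, or 0.203 to 0.290 CPM per library, which covers counting error only. Without the filter on low counts its FDR was 0.0578 between the cell types in control medium and 0.202 for CM in CD26+ NFs, so no difference was detectable at this depth.

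Read against all genes, the members stood as follows, counted among the 5 that were tested. With CM in CD26+ NFs 3 of 5 rose and 2 of 5 fell, where 15.2% of all tested genes rose and 13.4% fell. With CM in CD26- NFs 1 of 5, Ackr3, passed the test and rose, where 7.88% of all rose and 7.3% fell. At an unadjusted p under 0.05, which 15.8% of all passed upward and 14.7% downward, Cxcl12 and Cxcr4 passed there too. DESeq2 called 2, Ackr3 and Cxcl12, both higher, where it called 7.25% of its tested genes higher and 7.37% lower. Between the cell types in control medium 1 of 5 was higher and 1 lower in CD26+ NFs, against 25% and 25.4% of all tested genes, and in CM 2 were higher and 2 lower, against 29.3% in each direction. The difference in CM effect was called for 2 of 5, Cxcl12 and Cxcl16, both more positive in CD26+ NFs, where 4.53% of all tested genes were called in that direction and 3.01% in the other. With the line as a replicate block 4 of 5 members passed for the difference, 3 higher and 1 lower, where that fit called 9.42% of all tested genes higher and 8.21% lower. Cxcl14 was among them with a log2 difference of -0.50 ± 0.11 (SE, FDR = 0.00714), where it had been -0.42 ± 0.57 (SE, FDR = 0.695) without the block. The median log2 fold change of the tested members was 1.26 in CD26+ and 0.016 in CD26- NFs, beside medians of -0.0040 and 0.0052 over all tested genes.

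Since each tumor line was given to both cell types, the lines could be compared across them. A line effect on the level in CM, with the cell type as a further term, was called for 1 of 5 members, Cxcl14, where 6.56% of 13344 tested genes were called. Its F was 72.5 (FDR = 0.000887), rank 7 of 13344 genes. The 6 lines stood in the same order in both cell types: 13-MCB-17 gave the lowest Cxcl14, then 10-SJK-221, 13-MCB-90, 13-MCB-44, 18-MCB-12 and 13-MCB-138. Against the control mean the change ran from -1.66 to 0.023 on the log2 scale in CD26- NFs and from -2.21 to -0.091 in CD26+ NFs. Without both libraries of line 13-MCB-138, an alternative added after the data were seen, the FDR was 0.000437. Within the same CM, CD26+ NFs had the lower Cxcl14 for all 6 lines, by 0.71 to 1.35.

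The order of lines for Ackr3 was close to the opposite. Lines 10-SJK-221 and 13-MCB-17 gave the highest Ackr3 in both cell types, with 18.1 and 17.4 CPM in CD26- and 25.0 and 24.8 CPM in CD26+ NFs. Lines 13-MCB-44 and 13-MCB-138 gave the lowest, with 8.99 and 9.10 CPM in CD26- and 20.7 and 14.3 CPM in CD26+ NFs. Its line effect missed the FDR (0.0520), was past it without replicate 7, 9 or 16 (0.0344, 0.0469 and 0.0242), with DESeq2 (adjusted p = 0.00275, where 10.1% of all genes were called), with upper-quartile scaling (0.0476, with 7.03% called) and with no filter (0.000202), and ran from 0.000202 to 0.117 over all alternatives. Over the 12 CM libraries, as deviations from the cell type mean, Pearson's r of Ackr3 with Cxcl14 was -0.85, a description over 6 media that each supplied 2 libraries.

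The Cxcl12 level did not follow a shared order of lines. Line 13-MCB-138 gave the second highest level of the 6 in CD26- NFs, 120 CPM, and the lowest in CD26+ NFs, 757 CPM. The line effect missed the FDR (0.519). It was past it without replicate 9 (0.0353) or 18 (0.0498), the libraries given CM of line 13-MCB-138, it was 0.0617 without both, and with no filter on low counts it was 0.00511. Cxcr4 (FDR = 0.506) and Cxcl16 (FDR = 0.423) were not called either, though Cxcl16 was past it with no filter (0.0494), a fit that called 8.33% of 29724 genes. Against the control mean, Cxcr4 was lower with all 6 lines in both cell types, and Cxcl16 was higher with all 6 in CD26+ and with 3 of 6 in CD26- NFs.

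**Figure D3:**
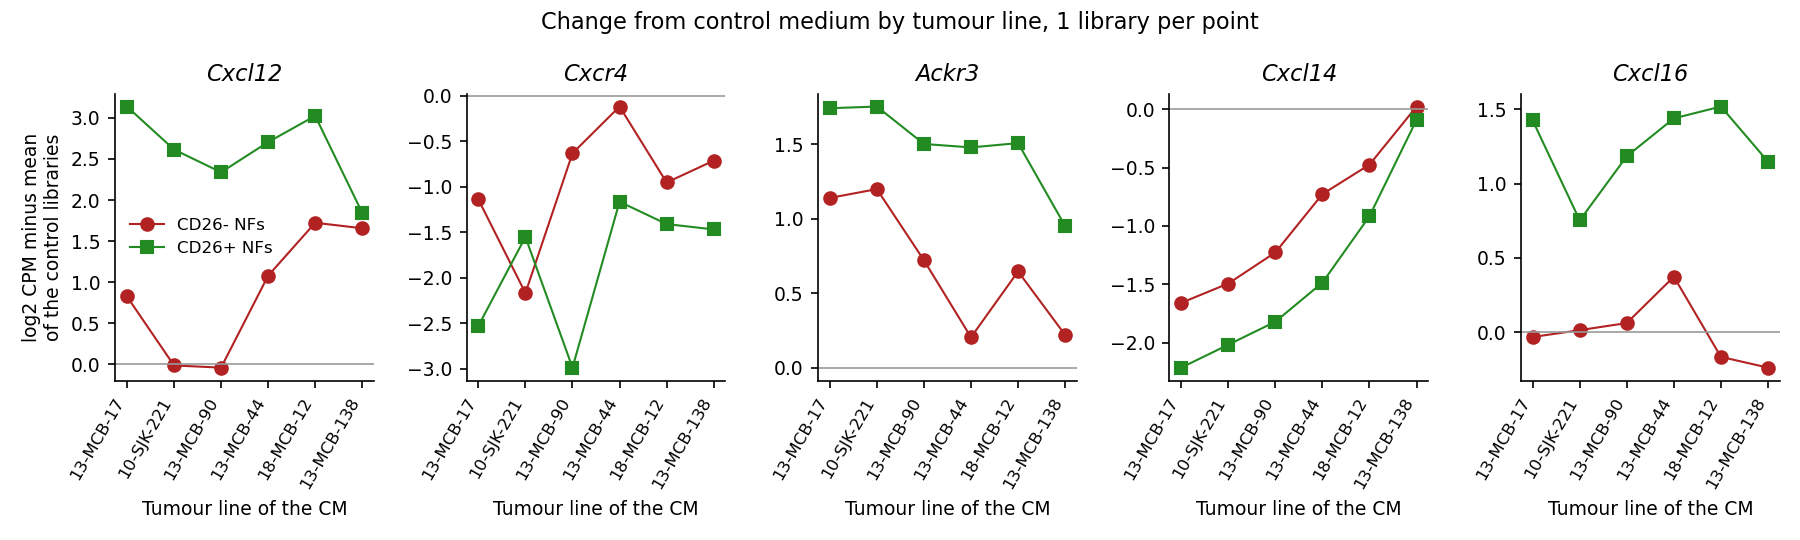
Log2 CPM of each CM library minus the mean of its control libraries, by the tumor line that supplied the CM, with lines ordered by their mean effect on Cxcl14. The rise of Cxcl14 from left to right is shared by both cell types, and the Cxcl12 points of line 13-MCB-138, at 1.66 and 1.84, are the closest of the 6 pairs.

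The genes whose levels ran most like those of Cxcl12 over the 18 libraries, among 11123 genes, were Tcn2 (a vitamin B12 carrier, r = 0.993), Mfap5 (a microfibril protein, r = 0.989), Serpina3f (r = 0.988), Igfbp3 (an IGF-binding protein, r = 0.987) and Epas1 (the transcription factor HIF-2alpha, r = 0.986). These coefficients describe log2 CPM over groups that lie apart. Over the deviations of the 12 CM libraries from their cell type mean the order changed, with Phldb2 (r = 0.956), Nbl1 (0.954), Timp3 (0.949), Galnt18 (0.943) and Wipi1 (0.942). By the latter measure the genes most like Cxcl14 included C1qtnf6 (0.981) and Col11a1 (0.973), those most like Ackr3 were Agpat2 (0.963), Gstp-ps (0.954) and Naa25 (0.943), and those most like Cxcl16 were Eva1c (0.953), Zfand2a (0.915) and Kcnf1 (0.897). Over the 18 libraries Ackr3 ran most like Akr1b8 (0.969), Acsl6 (0.957) and Glul (0.956), Cxcl14 like Canx (0.950), Pex19 (0.948) and Actg2 (0.936), and Cxcl16 like Dusp3 (0.965), Cgnl1 (0.959) and Dhx32 (0.958).

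The other genes of the pathway were taken from lists by role. Of 9 further CXC and atypical receptors 2 were tested, Cxcr6 and Ackr4. In CD26- NFs Cxcr6, the receptor of Cxcl16, was at 4.92 ± 0.217 CPM without CM (SD, n = 3) and at 2.16 ± 1.49 CPM with it (SD, n = 6), a fall that passed the test (-1.19 ± 0.39 on the log2 scale, SE, FDR = 0.0491). In CD26+ NFs its change was -0.48 (FDR = 0.445). Of 11 other CXC ligands 5 were tested, all of them neutrophil attractants, and 4 of these, Cxcl1, Cxcl2, Cxcl3 and Cxcl5, rose in each cell type, where 7.88% of all tested genes rose in CD26- and 15.2% in CD26+ NFs. Cxcl5 rose by 2.83 ± 0.32 on the log2 scale in CD26- (FDR = 9.32e-05) and by 3.65 ± 0.34 in CD26+ NFs (FDR = 1.07e-06), and Cxcl1 by 2.25 ± 0.29 (FDR = 0.000195) and 3.68 ± 0.32 (FDR = 6.14e-07). The fifth, Ppbp, which also attracts neutrophils, did not pass with CM (-0.10 ± 0.26, SE, FDR = 0.836 in CD26- and 0.36 ± 0.41, SE, FDR = 0.551 in CD26+ NFs). The median of the 5 was 2.25 in CD26- and 3.65 in CD26+ NFs, each above the CM effect of Cxcl12 in the same cells. The difference in CM effect passed for Cxcl3 (2.98 ± 0.78, SE, FDR = 0.0284) and Cxcl1 (1.43 ± 0.41, SE, FDR = 0.0413), both more positive in CD26+ NFs. Unlike Cxcl12, 4 of the 5 were lower in CD26+ NFs in control medium (median -2.69, with 25.4% of all tested genes lower), led by Ppbp (-4.27 ± 0.39, SE, FDR = 1.64e-07) and Cxcl3 (-3.34 ± 0.71, SE, FDR = 0.000795). In CM Cxcl5 was higher (1.06 ± 0.23, SE, FDR = 0.000625) and Ppbp lower (-3.82 ± 0.27, SE, FDR = 3.95e-09) in CD26+ NFs, and Cxcl1 (FDR = 0.325) and Cxcl3 (FDR = 0.258) did not pass.

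A list of 4 further genes held Adm and Mif, which bind the receptors, and Hmgb1 and Cd74, which bind Cxcl12 and Mif, respectively. Adm, adrenomedullin, a peptide that Ackr3 also takes up, had the smallest p of the list with CM in CD26+ NFs, and Mif in CD26- NFs. Adm was at 19.2 ± 3.63 CPM in CD26- control (SD, n = 3), 94.9 ± 22.5 in CD26- CM (SD, n = 6), 8.67 ± 1.19 in CD26+ control (SD, n = 3) and 138 ± 65.0 in CD26+ CM libraries (SD, n = 6). It rose by 2.31 ± 0.40 (SE, FDR = 0.00142) in CD26- and by 3.99 ± 0.45 (SE, FDR = 6.81e-06) in CD26+ NFs on the log2 scale, beside the rise of Ackr3 in both. Mif, a cytokine that binds Cxcr4, rose in CD26- NFs (0.55 ± 0.09, SE, FDR = 0.00102), and its CM effect was lower in CD26+ NFs (difference -0.47 ± 0.13, SE, FDR = 0.0339). Hmgb1, a nuclear protein that binds Cxcl12 outside the cell, fell in CD26+ NFs (-0.32 ± 0.10, SE, FDR = 0.0184). Cd74, a receptor of Mif, was at 1.37 ± 0.448 CPM (SD, n = 3) or lower on average and did not pass with CM (FDR = 0.992 in CD26- and 0.215 in CD26+ NFs). Of the 4 genes, 2 rose in CD26- NFs, and CD26+ NFs had 1 higher and 1 lower, with medians of 0.32 and -0.12 on the log2 scale, beside 7.88% of all tested genes higher in the former and 15.2% higher and 13.4% lower in the latter cells.

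Of 8 proteases that trim or shed chemokines 6 were tested. In CD26- NFs 1 gene rose while 3 fell, and the CD26+ NFs had 3 higher and 2 lower genes, with medians of -0.067 and 0.081. In all tested genes the shares were 7.88% higher and 7.3% lower, and 15.2% and 13.4%. Adam10, which sheds Cxcl16, fell by 0.39 ± 0.07 in CD26- (FDR = 0.00217) and by 0.22 ± 0.07 in CD26+ NFs (FDR = 0.0333) on the log2 scale. Adam17 rose in CD26+ NFs (0.34 ± 0.05, SE, FDR = 0.000171). Mmp14, a membrane metalloproteinase, fell in both (-0.26 ± 0.08, SE, FDR = 0.0309, and -0.38 ± 0.08, SE, FDR = 0.00127). Mmp2, a gelatinase that inactivates Cxcl12, rose in CD26- NFs (0.52 ± 0.10, SE, FDR = 0.00240), with a difference in CM effect of -0.69 ± 0.13 (SE, FDR = 0.00643), and Mmp9 moved the other way (difference 2.15 ± 0.47, SE, FDR = 0.0121). Dpp4 was called in CD26+ NFs (FDR = 0.000312), at 3.53 ± 2.56 CPM (SD, n = 6) in CM, so the transcript of the peptidase that trims Cxcl12 was at its highest where Cxcl12 was.

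Of 25 genes of receptor signaling and desensitization 23 were in the table and 19 were tested, and 3 rose in CD26- NFs while 4 rose and 1 fell in CD26+ NFs, while of all tested genes 7.88% rose in CD26- NFs and CD26+ NFs had 15.2% higher and 13.4% lower. Gnai1, an inhibitory G protein subunit, rose in CD26+ NFs (1.19 ± 0.11, SE, FDR = 1.20e-06) with a difference in CM effect of 1.25 ± 0.15 (SE, FDR = 0.000560). Rgs16, which shortens G protein signals, rose by 1.95 ± 0.24 there (FDR = 1.54e-05), with a difference of 1.25 ± 0.31 (FDR = 0.0224). Gnai2 fell in CD26+ NFs (-0.18 ± 0.06, SE, FDR = 0.0343). In CD26- NFs Gng2 (1.53 ± 0.26, SE, FDR = 0.00137) and the receptor kinase Grk3 (2.01 ± 0.52, SE, FDR = 0.0150), the latter under 1 CPM on average, had the smallest p. Gng2 (1.18, FDR = 0.00178) and Grk3 (2.87, FDR = 0.00525) also rose in CD26+ NFs, and Rgs16 (0.70, FDR = 0.0379) in CD26- NFs. The arrestin genes Arrb1 (FDR = 0.784 and 0.251) and Arrb2 (FDR = 0.219 and 0.414) did not pass with CM in CD26- or CD26+ NFs. The median of the 19 was 0.063 in CD26- and 0.12 in CD26+ NFs.

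Heparan sulfate chains hold Cxcl12 at the cell surface and in the matrix. All 12 genes listed for their core proteins and chain synthesis were tested, and 11 were higher in CD26+ than in CD26- NFs in CM (median 0.39), where 29.3% of all tested genes were, led by the glypican gene Gpc3 (2.42 ± 0.17, SE, FDR = 4.13e-09) and the syndecan gene Sdc4 (0.61 ± 0.06, SE, FDR = 1.75e-07). In control medium 4 were higher and 1 was lower (median 0.17), against 25% and 25.4% of all tested genes. The higher genes were led there by the glypican gene Gpc6 (1.24 ± 0.15, SE, FDR = 2.37e-06) and Ext2 (0.50 ± 0.08, SE, FDR = 2.72e-05), the lower gene was Sdc1 (-0.72 ± 0.14, SE, FDR = 0.000320), and Sdc4 did not pass (0.0087 ± 0.085, SE, FDR = 0.943). The CM effect passed the test in CD26+ NFs for 5 genes that rose and 1 that fell (median 0.24), and for 1 gene each way in CD26- NFs (median -0.070), beside 15.2% and 13.4% of all tested genes in the former and 7.88% and 7.3% in the latter cells. Sdc4 rose in both, by 0.23 ± 0.07 in CD26- (FDR = 0.0437) and 0.83 ± 0.08 in CD26+ NFs (FDR = 9.81e-07), with a difference of 0.60 ± 0.10 (FDR = 0.00429). Ext1, a polymerase of the chains, rose in CD26+ NFs (0.45 ± 0.09, SE, FDR = 0.00132), and Sdc3 fell in both cell types (-0.57 ± 0.12, SE, FDR = 0.00460, and -0.52 ± 0.12, SE, FDR = 0.00379).

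Cxcl12-rich reticular cells of the bone marrow share a set of 12 genes, all tested. Exposure to CM raised 4 and lowered 1 of them in CD26- NFs, against 4 and 2 in CD26+ NFs, beside 7.88% and 7.3% of all tested genes in CD26- and 15.2% and 13.4% in CD26+ NFs. In CD26- NFs the adhesion molecule Vcam1 (1.58 ± 0.18, SE, FDR = 8.76e-05) and Kitl, the ligand of Kit (1.26 ± 0.25, SE, FDR = 0.00338), had the smallest p among those that rose, and in CD26+ NFs Csf1 (0.63 ± 0.10, SE, FDR = 0.000173) and Pdgfra (1.06 ± 0.19, SE, FDR = 0.000454). The same 4 genes rose in both cell types. Vcam1 (0.74, FDR = 0.00282) and Kitl (1.10, FDR = 0.00306) also rose in CD26+ NFs, and Csf1 (0.40, FDR = 0.0112) and Pdgfra (0.89, FDR = 0.00460) in CD26- NFs. The transcription factor Foxc1 fell in CD26- (-0.87 ± 0.20, SE, FDR = 0.00729) and CD26+ NFs (-0.72 ± 0.20, SE, FDR = 0.0133), and Angpt1 in CD26+ NFs (-1.32 ± 0.24, SE, FDR = 0.000653). The CM effect on Vcam1 was smaller in CD26+ NFs (difference -0.83 ± 0.23, SE, FDR = 0.0376), opposite in sign to that of Cxcl12. Lepr, a defining gene of these cells, was low, with a mean of at most 1.33 CPM in a group. The median of the 12 was 0.17 in CD26- and 0.065 in CD26+ NFs.

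**Figure D4:**
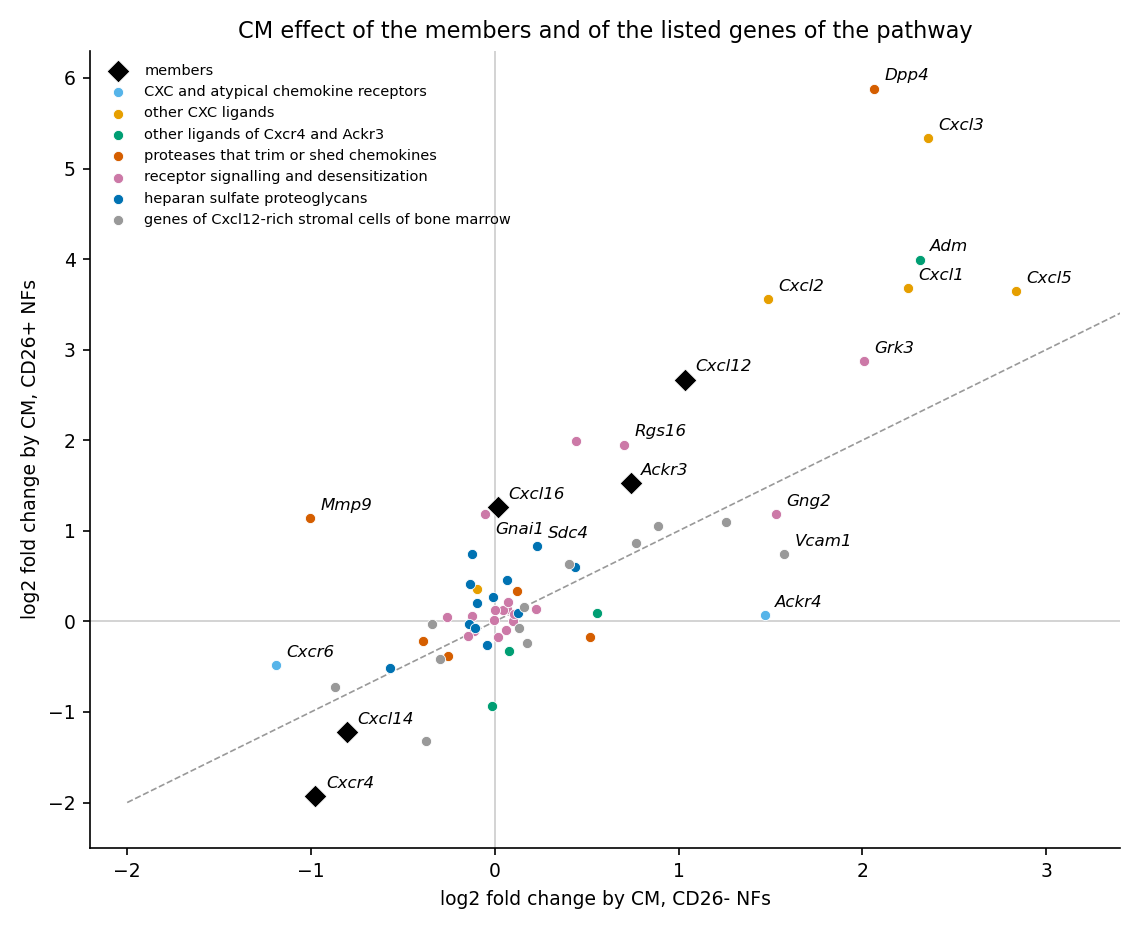
Log2 fold change by CM in CD26- NFs (x axis) against that in CD26+ NFs (y axis) for the tested members (diamonds) and the listed genes of the pathway (circles, colored by list). The dashed line marks equal effects. Cxcl12, at 1.04 and 2.67, lies with Cxcl1, Cxcl3 and Cxcl5 above the line, and Vcam1, at 1.58 and 0.74, lies below it.

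Markers of other cells were followed beside these results. Of 10 fibroblast markers 9 were higher in CD26+ NFs in control medium (25% of all tested genes were), led by Thy1 (1.74 ± 0.18, SE, FDR = 6.07e-07) and Col1a2 (1.83 ± 0.28, SE, FDR = 3.03e-05), and 8 in CM (29.3% of all), led by Dcn (2.35 ± 0.22, SE, FDR = 9.35e-08) and Thy1 (1.18 ± 0.12, SE, FDR = 3.49e-07). In CD26- NFs CM raised 4 of them, led by the proteoglycan genes Dcn (2.64 ± 0.30, SE, FDR = 8.76e-05) and Lum (2.38 ± 0.42, SE, FDR = 0.00154), and lowered 2, Fap (-1.08 ± 0.23, SE, FDR = 0.00557) and the collagen gene Col3a1 (-1.20 ± 0.39, SE, FDR = 0.0447). In CD26+ NFs 3 rose and 5 fell, and the shares of all tested genes that rose and fell were 7.88% and 7.3% in CD26- and 15.2% and 13.4% in CD26+ NFs. Those that rose were led by Dcn (3.19 ± 0.31, SE, FDR = 1.48e-06) and Pdgfra, and those that fell by Vim, which encodes vimentin (-0.35 ± 0.07, SE, FDR = 0.00185), and Col3a1 (-1.82 ± 0.39, SE, FDR = 0.00203).

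The summed level of 5 pericyte markers was 145 to 162 CPM in CD26- control, 47.3 to 93.0 CPM in CD26- CM, 41.6 to 60.9 CPM in CD26+ control and 34.8 to 59.4 CPM in CD26+ CM libraries, so control and CM ranges were separate in CD26- NFs and overlapped in CD26+ NFs. With CM, Rgs5 (-2.19 ± 0.29, SE, FDR = 0.000274) and Mcam (-1.49 ± 0.26, SE, FDR = 0.00163) fell in CD26- NFs, and Abcc9 fell in CD26+ NFs (-1.65 ± 0.28, SE, FDR = 0.000367). The difference in CM effect passed for Rgs5 (2.20 ± 0.45, SE, FDR = 0.00845) and Cspg4 (1.09 ± 0.29, SE, FDR = 0.0291), more positive in CD26+ NFs as for Cxcl12 and Cxcl16. Of the 4 tested pericyte markers 3 were lower in CD26+ NFs without CM (25.4% of all tested genes were), led by Mcam (-1.93 ± 0.33, SE, FDR = 9.85e-05) and Cspg4 (-1.35 ± 0.24, SE, FDR = 0.000124), while Abcc9 was higher (1.85 ± 0.35, SE, FDR = 0.000280), and with CM (29.3% of all) 1 was lower, Mcam (-1.11 ± 0.24, SE, FDR = 0.000742).

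The 6 endothelial markers were low, with sums of 4.64 to 5.68 CPM in CD26- control, 4.00 to 9.14 CPM in CD26- CM, 2.26 to 2.96 CPM in CD26+ control and 2.27 to 4.43 CPM in CD26+ CM libraries. The sums of the control groups were separate, and within each cell type those of control and CM overlapped. Cdh5, the cadherin of endothelial cells, rose with CM in CD26- NFs (1.22 ± 0.30, SE, FDR = 0.0121), and it was lower in CD26+ NFs in control medium (-2.17 ± 0.47, SE, FDR = 0.000996) and in CM (-2.14 ± 0.26, SE, FDR = 1.91e-06). Vwf was called higher with CM in CD26+ NFs (FDR = 0.0265), at means of 0.0539 CPM without and 0.465 CPM with CM, and without CM it was called lower in CD26+ than in CD26- NFs (FDR = 0.0119), the latter at 0.576 CPM. The 10 immune markers summed to 13.9 to 27.7 CPM over all libraries, mostly Csf1r at 11.0 to 26.8 CPM. Of these 2 were tested, and Cd68, a lysosomal protein of macrophages and other cells, was lower in CD26+ NFs without CM (-0.70 ± 0.28, SE, FDR = 0.0436) and with it (-1.08 ± 0.19, SE, FDR = 9.78e-05), while Csf1r passed in neither (FDR = 0.280 and 0.196). The part of these cells in the CM effects, their difference and the comparison of the cell types was not tested.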

How the data were processed

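Per the labels, polyadenylated RNA of 18 cultures was sequenced single-end from stranded TruSeq libraries, and the submitters' processing notes name HISAT2 2.1.0, HTSeq and GRCm38. The authors deposited raw read counts per Ensembl gene, 1 column per library, with no normalization. The annotation release, the strand setting and any batch were not given in the sources used here. Counts were used as deposited, and 1 row without a gene (0 counts) was left out. Replicate counts differed beyond sampling noise in every group (lowest chi-square per degree of freedom 3.03).

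Genes were kept with filterByExpr by group (14273 of 55486, holding at least 99.85% of the counts of each library) and scaled by TMM. They were fitted together, with the 4 groups as terms, in edgeR 4.0.16 (quasi-likelihood F test, R 4.3.3, common biological coefficient of variation 0.117). The SE is the size of the log2 fold change over the root of F. The study used DESeq2, and DESeq2 1.42.0 served here as an alternative. The contrasts were the CM effect in each cell type, the cell types in each medium, and the difference between the CM effects. The line effect was tested in the 12 CM libraries with the cell type as a term (13344 genes). Libraries given the same CM deviated together from their group means (r from 0.247 to 0.406 in all 6 pairs), so the line pairs them. A fit with the line as a replicate block was therefore run for the cell types in CM and for the difference between the CM effects. The further alternatives were RLE and upper-quartile scaling, no filter, only the groups compared, and each library left out. The fits were tested on simulated data.

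Exon lengths, transcripts and coordinates came from GENCODE M21 (GRCm38), where 54820 genes of the table had the same start and end, and promoters from RefSeq (GRCm38.p6). Likeness used log2 CPM (prior count 2) of tested genes that reached a group mean of 5 CPM. For each list, the up to 2 genes with the smallest p in each direction among those past the FDR were named per comparison described. Ackr4, Arrb1, Arrb2, Cd74, Cxcl2, Ppbp with CM, Sdc4 in control medium, Lepr, Csf1r, Cxcl1 and Cxcl3 between the cell types in CM, Dpp4 counts and Zmynd15 were added after their values were seen. The same holds for Vcam1, Kitl, Gng2 and Grk3 with CM in CD26+ NFs. It also holds for Csf1, Pdgfra and Rgs16 with CM in CD26- NFs, and for the Cd68 level. The members and lists were chosen with earlier results of these data known. Depth and low counts limit the precision of Cxcr4 and Cxcl13. One gene that the likeness rule names and one engineered allele are not reported here.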

Additional observations from a re-analysis of the deposited data

Results flagged for a closer look

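The CM effect on Cxcl12 differed between the cell types, by 1.63 on the log2 scale, in a test of the difference itself (edgeR, FDR = 0.0476), a call that was lost in 15 of 18 fits with a library left out and ran to an FDR of 0.110. Those fits did not pair the libraries by line. With the line as a replicate block and all libraries kept, the difference was 1.72 ± 0.40 (SE, edgeR, FDR = 0.0115). The CM effect on Cxcl16 differed as well, by 1.25 (edgeR, FDR = 0.00402). Among the CD26+ CM libraries, Ackr3 in replicate 18, given CM of line 13-MCB-138, lay far below the other 5, with a gap of 0.658 of the group's range. This was 1 of 10 gene and group pairs looked at for a library that stands apart, and chance flags about 1 in 20 groups. The same line gave the lowest Cxcl12 and the highest Cxcl14 of the CD26+ CM libraries.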

How the results depend on the processing

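Of 665 values of single genes under an alternative, 616 kept their direction and their side of the FDR, 25 lost the call, 20 gained it and 4 reversed. The calls of Cxcl12 for CM in CD26- NFs and for the difference in CM effect lay near the FDR of 0.05. The CM effect in CD26- NFs was 1.03 and past it with DESeq2, and 0.85 to 1.18 over the libraries left out in turn, past it without replicate 5, 8 or 18. The difference in CM effect was 1.49 to 1.82 over the libraries left out and lost the call in 15 of 18. The FDR of its line effect was 0.00511 with no filter on low counts and 0.0353 to 0.747 over the CM libraries left out. The reversed values were those of genes near 0: the CM effect on Cxcl16 in CD26- NFs ran from -0.067 to 0.062 over the libraries left out, and Ackr3 between the cell types in control medium from -0.19 to 0.030. The number of members called for CM in CD26- NFs was 2 with DESeq2 (7.25% of all genes higher, 7.37% lower), 0 when only these groups were fitted (8.44% and 7.81%) and 0 to 2 over the libraries left out (3.26% to 9.9% and 2.43% to 9.44%). For the difference in CM effect it was 4 with the line as a replicate block, which called 9.42% of all genes higher and 8.21% lower, and 1 to 2 over the libraries left out (1.45% to 8.01% higher, 0.882% to 8.44% lower). For the line effect it was 2 with DESeq2 (10.1% of all genes), 2 with upper-quartile scaling (7.03%), 4 with no filter (8.33%) and 1 to 3 over the libraries left out. The share of all genes was not recorded for those last fits, so that range cannot be set against it. The block changed no call of the cell types in CM. The cause of these changes was not tested. RLE scaling changed no call, and rescaling moved the median of all genes by at most 0.032 on the log2 scale. Cxcl13 was given no alternatives other than no filter, since it failed the filter. Where a control library was left out, 2 remained in its group. Cxcr4, with 2 to 43 counts per library, is the tested member that depth limits most.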
